A study of Homo sapiens with 2 samples.

Results

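Tumour necrosis factor and the proteins that gather at its receptor were followed in A549 cells, a long-established human line from a lung adenocarcinoma that grows as an epithelial sheet. The genes were taken from a list of 10 symbols: TNF, TRADD, RIPK1, TRAF2, TAB1, TAB2, CYLD, FADD, CASP8 and CFLAR. The platform's annotation named 7 of them, among 14884 named genes in all. These 7 genes had 16 probe sets, of which 10 carried different values. RIPK1, TRAF2 and CASP8 were not analysed here, and neither were the receptors TNFRSF1A and TNFRSF1B, because the annotation used here names no probe set for them. The study, whose title names mechanical stretch, invasion of lung cancer cells and tumour necrosis factor alpha, compared A549 cells after 4 h in stretch culture with A549 cells after 4 h in static culture, 1 array each. No other treatment is given in the labels, and the label of the stretched sample writes the name of the line as A594 in its title and as A549 in its source name. The sources used here do not give the amplitude or rate of the stretch, or the number of cultures behind each RNA. No value below has a replicate, so no difference could be tested, and the number of arrays limits the precision.

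As background, TNF is a cytokine made as a membrane protein and released by cleavage. Its binding to the type I receptor recruits the adaptor TRADD, which brings in the kinase RIPK1 and the ubiquitin ligase adaptor TRAF2. Ubiquitin chains built there are read by TAB2, which with TAB1 activates the kinase TAK1 on the way to NF-κB and the stress-activated MAP kinases, while the deubiquitinase CYLD removes such chains. When this complex gives way, FADD and CASP8 can form a second complex that starts cell death, and CFLAR (c-FLIP), a relative of CASP8 without protease activity, restrains it. Many epithelial tumour cells survive TNF because the NF-κB arm keeps CFLAR and the inhibitors of apoptosis present.

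The promoters of 4 genes are shown because 3 of them, CFLAR, CYLD and TAB1, stood at least 1.5-fold higher on the stretched array and the fourth belongs to the ligand TNF itself. Each line gives the 250 bases before a transcription start of the RefSeq annotation (GRCh38.p14), read 5′ to 3′, with capitals for matches to the NF-κB consensus. For CFLAR and CYLD, which have several starts, the window with such a match is shown. Their other windows held none.
CFLAR, chr2:201118466-201118715, plus strand: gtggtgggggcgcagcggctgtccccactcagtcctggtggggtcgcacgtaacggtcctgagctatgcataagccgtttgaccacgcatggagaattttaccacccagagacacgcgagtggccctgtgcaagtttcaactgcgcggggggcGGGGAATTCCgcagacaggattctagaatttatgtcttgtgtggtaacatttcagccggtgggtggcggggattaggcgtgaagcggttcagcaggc
CYLD, chr16:50741836-50742085, plus strand: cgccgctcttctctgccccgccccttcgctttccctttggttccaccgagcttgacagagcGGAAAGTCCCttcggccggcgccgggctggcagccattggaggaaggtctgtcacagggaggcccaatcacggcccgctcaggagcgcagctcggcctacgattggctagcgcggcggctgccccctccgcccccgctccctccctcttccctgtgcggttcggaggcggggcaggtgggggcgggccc
TAB1, chr22:39399530-39399779, plus strand: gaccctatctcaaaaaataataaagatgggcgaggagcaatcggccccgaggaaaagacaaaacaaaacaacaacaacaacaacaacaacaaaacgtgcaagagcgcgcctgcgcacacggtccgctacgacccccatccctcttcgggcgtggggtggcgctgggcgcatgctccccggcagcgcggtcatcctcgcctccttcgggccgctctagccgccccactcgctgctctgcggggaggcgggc
TNF, chr6:31575315-31575564, plus strand: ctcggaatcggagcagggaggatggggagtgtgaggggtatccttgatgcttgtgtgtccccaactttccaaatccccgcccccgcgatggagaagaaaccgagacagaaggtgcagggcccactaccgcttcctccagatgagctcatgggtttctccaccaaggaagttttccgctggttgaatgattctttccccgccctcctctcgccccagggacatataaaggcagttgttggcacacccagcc

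RefSeq windows were matched for 6 of the 7 named genes, all but TRADD, and gave 12 windows, because CFLAR, CYLD and TAB2 have several starts. Among them, 2 CYLD windows overlap, so the windows are not all separate stretches. Both strands were searched. No difference between these windows and those of all genes was tested. The NF-κB consensus was found in 2 of the 12 windows, against 5.2% of 34943 windows of all genes. One match was GGGGAATTCC at position -97 of the CFLAR window shown, and the other was GGAAAGTCCC at position -189 of the CYLD window shown. The AP-1 motif TGANTCA was found in 1 of the 12 windows, another CFLAR start, against 6.59% of all windows. The cyclic AMP response motif TGACGTCA was found in 1, another CYLD start, against 1.63%. The TEAD motif GGAATG was found in 0, against 11.9%. No match in a window says only that these letters are not there, and a match does not show a site in use. The TNF and TAB1 windows held none of these 4 motifs. No match overlapped one to another of the motifs.

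Signals are given as the deposited log2 values (RMA), each difference is stretch minus static on the log2 scale, and a gene is represented by its probe set with the higher mean signal. Signals ranged from 0.60 to 12.63 on the stretched array and from 0.61 to 12.70 on the static array. A gene entered counts when the higher of its signals reached 2.52, the median of all values, which 10981 genes did, the 7 named genes among them. The 95th percentile of the signals of 23 genes of unrelated tissues, 4.395, was used as a guide to where background ends. The guide rests on the brightest of these genes, such as ZP3, which read 5.71 on the stretched array and 5.20 on the static array. The medians of the list were 2.05 on the stretched array and 2.26 on the static array. Of these 23 genes, 5 differed by at least 1.5-fold between the arrays in either direction, and the robust SD of their differences was 0.44. The epithelial list had 6 of 13 genes named, with 4 above the background guide on the stretched array and 4 on the static array. Its keratin KRT18 read 11 and 10.29 on the stretched and static arrays, and EPCAM, an epithelial adhesion molecule, read 4.71 and 5.30. Surfactant and other alveolar type II genes, 6 of 7 named, lay below the guide on both arrays. Endothelial genes (4 of 5 named) and fibroblast genes (2 of 6 named) lay below it as well. Leukocyte genes were named for 4 of 10. CD68, a lysosomal protein of macrophages and other cells, read 8.58 and 7.51, CD14 read 5.53 and 5.13, and CD163 and LYZ lay below the guide. On the linear scale the summed signals of the leukocyte list were 436 under stretch and 226 under static culture, mostly from CD68, and the part of other cells in the results below was not tested.

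TNF was dim and nearly level between the conditions. Its probe set read 3.27 on the stretched array and 3.46 on the static array, a difference of -0.19. Both values lay within the background range. In whole-culture RNA, fewer cells making a transcript and less of it per cell cannot be told apart. The annotation gives TNF 8 probe sets, and 7 of them carry the same pair of values. The remaining one read 2.55 on the stretched array and 2.58 on the static array, a difference of -0.03. The 7 are therefore 1 measurement. On these arrays 4 named genes had 7 probe sets of identical values, TNF, NCR3, MRPS18B and the microRNA gene MIR4646, and RefSeq places all 4 on chromosome 6. Among 1257 genes within 0.25 of TNF in mean signal, 33.0% had a lower difference than TNF, so it lay inside their interquartile range, which ran from -0.32 to 0.38.

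**Figure D1:**
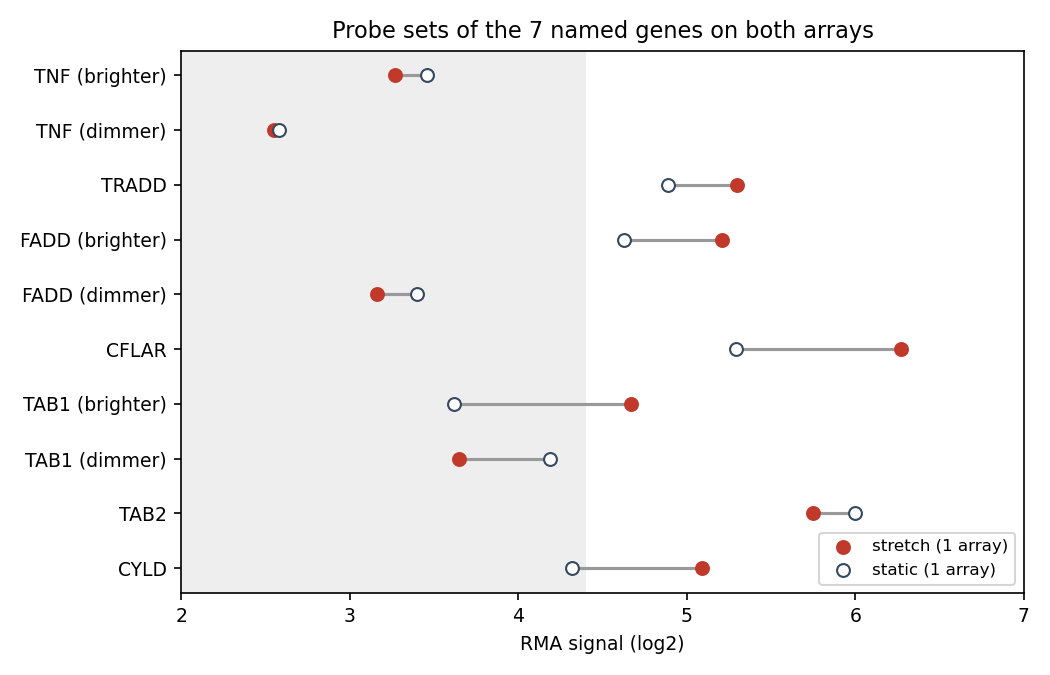
Signals (log2 RMA, horizontal axis) of the 10 probe sets with different values, for the stretched array (filled) and the static array (open), joined by a line. Grey marks signals up to 4.395, the background guide. CFLAR has the longest line to the right of the grey area, while both TNF probe sets lie inside it, and the paired probe sets of TAB1 and of FADD point in opposite directions.

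Of the receptor's adaptors, both named here stood higher under stretch by less than 1.5-fold. TRADD, the adaptor that binds the death domain of the receptor, read 5.30 on the stretched array and 4.89 on the static array, a difference of 0.41 (1.33-fold). FADD, the adaptor that binds CASP8, read 5.21 on the stretched array and 4.63 on the static array, a difference of 0.58 (1.49-fold), just under the 1.5-fold threshold of 0.585. Its second probe set pointed the other way and lay within the background range, with 3.16 on the stretched array and 3.4 on the static array, a difference of -0.24. Genes of similar signal had differences of like size. The median difference of 1042 genes within 0.25 of TRADD in mean signal was 0.46, and that of 1089 genes near FADD was 0.45. Of those neighbours, 46.9% had a lower difference than TRADD and 57.9% a lower one than FADD.

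CFLAR, which restrains CASP8 at the death-inducing complex, stood higher under stretch. It read 6.27 on the stretched array and 5.29 on the static array, a difference of 0.98 (1.97-fold), with both values above the background guide and 1 probe set to measure it. Of the 866 genes near it in signal, 38.9% were at least 1.5-fold higher, and 78.9% had a lower difference than CFLAR. The difference of CFLAR exceeded that of FADD by 0.40. A shift common to all probe sets of an array leaves such a gap as it is. Only quantile normalization (0.365) and loess (0.36) could therefore change it. The gap is smaller than 0.44, the robust SD of the differences of the unrelated-tissue genes. It also rests on the brighter FADD probe set, since the dimmer had a difference of -0.24.

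TAB1 and TAB2, the partners of the kinase TAK1, pointed in opposite directions. TAB1 read 4.67 on the stretched array and 3.62 on the static array, a difference of 1.05 (2.07-fold), with the static value within the background range. TAB2 read 5.75 on the stretched array and 6.00 on the static array, a difference of -0.25 (0.84-fold), with both values above the guide. TAB2 has 1 probe set. Near TAB2 in signal, 862 genes had a median difference of 0.43, and 10.3% of them had a lower difference than TAB2. Near TAB1, 1096 genes had a median of 0.28, and 87.0% had a lower difference than TAB1. The gap between TAB1 and TAB2 was 1.30 as deposited and 1.495 after quantile normalization.

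This gap rests on which TAB1 probe set is read. The annotation assigns the TAB1 probe sets to different RefSeq transcripts of the gene. The dimmer probe set read 3.65 on the stretched array and 4.19 on the static array, a difference of -0.54. Both values were no brighter than the background guide. The static value of the brighter probe set, 3.62, also lay below the guide and was lower than 4.19. The probe sets thus differed by 1.59 in their stretch minus static values. Of 390 genes that had several probe sets of different value past the level filter, 91.3% had a smaller gap than TAB1, 67.2% a smaller one than FADD and 21.5% a smaller one than TNF. The median gap was 0.49, and 150 of these genes (38.5%) had probe sets of both signs. Whether the TAB1 probe sets report different transcripts or noise was not tested.

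CYLD, the deubiquitinase that trims the chains at the receptor, stood higher under stretch. It read 5.09 on the stretched array and 4.32 on the static array, a difference of 0.77 (1.71-fold), with the static value just within the background range. It has 1 probe set. Of the 1081 genes near CYLD in signal, 71.5% had a lower difference, so it lay inside their interquartile range, which reached 0.85. The difference of CYLD exceeded that of TAB2 by 1.02 as deposited and by 1.09 after loess.

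**Figure D2:**
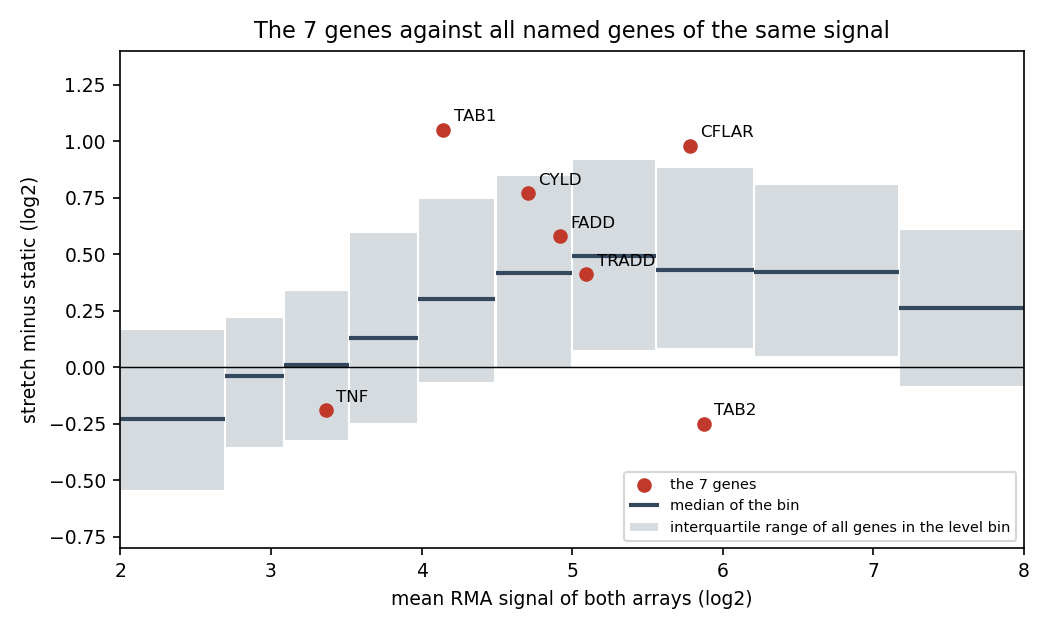
Difference (stretch minus static, log2, vertical axis) against mean signal of both arrays (log2, horizontal axis) for the 7 genes (points), over bars that span the interquartile range of all named genes in 10 equal bins of signal, with the bin median as a line; the axis ends at 8, inside the last bin. TAB1 and CFLAR lie above the interquartile range of their bins and TAB2 below, while TNF, TRADD, FADD and CYLD lie inside.

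Of the 7 genes, 3 were at least 1.5-fold higher under stretch (TAB1, CFLAR and CYLD), 0 at least 1.5-fold lower and 4 between. Over all 10981 genes past the level filter, the shares were 27.7% for at least 1.5-fold higher and 8.9% for at least 1.5-fold lower. TAB1 alone was at least 2-fold higher, against 12.3% of all genes, and 0 were at least 2-fold lower, against 2.5%. In direction, 5 of the 7 lay above 0, against 63.3% of all genes. The 7 genes had a median of 0.58 and a mean of 0.48, and all genes had a median of 0.20, with an interquartile range from -0.17 to 0.65. The signal of the genes moves with this comparison. In bins of mean signal, the share of genes at least 1.5-fold higher was 14.7% in bin 3, which holds TNF, 33.1% in bin 5, which holds TAB1, and 39.0%, 43.1% and 39.3% in bins 6, 7 and 8, which hold the other 5. With both signals above the background guide, 4 of the 7 genes remain (TRADD, FADD, CFLAR and TAB2), of which CFLAR is at least 1.5-fold higher. The share over the 4994 such genes was 32.9% higher and 3.84% lower, and the medians were 0.495 for the 4 genes and 0.34 for all. The share of these 7 genes that was higher is thus close to that of genes with similar signal.

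The scaling of the arrays decides part of these counts. The deposited columns had medians of 2.47 for the stretched and 2.57 for the static array, and the normalization between the arrays is unknown. The median difference of the 10981 genes was 0.20 as deposited, 0.30 with the arrays centred on their medians, 0.04 after a loess on signal, -0.01 after quantile normalization and -0.31 when centred on 6 housekeeping genes. Genes higher made up 75.7% of the genes past 1.5-fold as deposited, 60.3% after loess, 53.9% after quantile normalization and 23.9% on housekeeping genes. TAB1 and CFLAR lay above 0 under each of these scalings, between 0.54 and 1.15 for TAB1 and between 0.47 and 1.08 for CFLAR. CYLD lay between 0.26 and 0.87 and FADD between 0.07 and 0.68. TAB2 lay below 0 under each, between -0.76 and -0.15, and TNF did so as well, between -0.70 and -0.09. TRADD had no settled sign, with 0.51 at its highest, 0 after quantile normalization and -0.10 on housekeeping genes. At least 1.5-fold higher were TAB1 and CFLAR after loess (18.5% of all genes), TAB1 after quantile normalization (16.5%) and 0 of the 7 on housekeeping genes (9.73%). TAB2 was at least 1.5-fold lower after loess (-0.61, as were 12.2% of all genes), after quantile normalization (-0.69, as were 14.1%) and on housekeeping genes (-0.76, as were 30.9%).

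**Figure D3:**
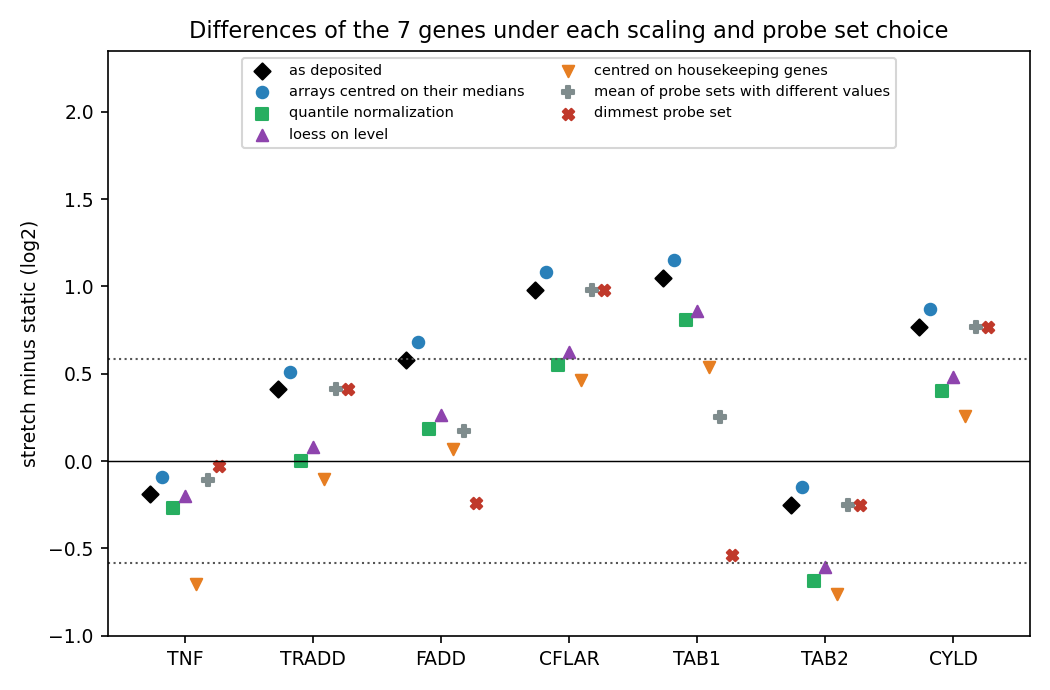
Difference (stretch minus static, log2, vertical axis) of each of the 7 genes under the deposited scaling, 4 other scalings and 2 other choices of probe set (symbols); dotted lines mark 1.5-fold. CFLAR and CYLD stay above 0 and TAB2 and TNF below 0 under all 7, TAB1 turns to -0.54 with its dimmer probe set, and FADD to -0.24.

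Around these genes, 9 lists of the TNF pathway were read, and many of their genes are not named by the annotation. Leaving out the 7 genes above and counting each gene once, 66 of 131 listed genes were named and 64 passed the level filter. Of the 64, 23 were at least 1.5-fold higher under stretch (35.9%), 5 at least 1.5-fold lower (7.81%) and 36 between, with a median of 0.315. The shares over all genes were 27.7% higher and 8.9% lower, with a median of 0.20. The counts of the single lists below are to be read against the same shares, which vary with signal. In bins of mean signal, the share at least 1.5-fold higher ran from 7.73% in bin 1 to 43.1% in bin 7. It was 32.9% over genes with both signals above the background guide. The lists were not matched for signal. The list medians given below are on the deposited scale, and some change sign under another scaling. That of the TRAF and cIAP adaptors was -0.17 after quantile normalization and -0.10 after loess. On housekeeping genes, the medians of the ligands, receptors, TRAF, TAK1, ubiquitin, RIPK and necroptosis lists lay below 0, while those of the death domain list (0.067) and the shedding list (0.32) lay above. The single lists include those of the 7 genes that belong to them. The ligand and receptor medians were below 0 under all 5 scalings. The ligand median was the value of TNF itself under each, and was -0.63 as deposited without TNF. All receptors named but EDA2R read within the background range on both arrays. In the 3 dimmest bins, the median difference of all genes as deposited was -0.23 (bin 1), -0.04 (bin 2) and 0.01 (bin 3). The sign of the ligand and receptor medians is therefore not particular to these lists. Centring on medians or on housekeeping genes shifts all differences alike.

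Ligands and receptors of the TNF superfamily included 0 genes at least 1.5-fold higher. Of 3 ligands named (18 listed), CD70, the ligand of CD27, read 4.34 on the stretched array and 5.61 on the static array (-1.27), the stretched value within the background range. EDA stood at 0.01, with both values in that range. Of 5 receptors named (29 listed), EDAR, the receptor of ectodysplasin, read 2.34 on the stretched array and 3.74 on the static array (-1.40), within the background range on both. NGFR stood at -0.41, RELT at 0.28 (with a second probe set at -0.22) and CD27 at -0.24, all within the background range. EDA2R, chosen after its values were seen, read 6.52 on the stretched array and 6.65 on the static array (-0.13), both above the guide. The list medians were -0.19 for the ligands and -0.24 for the receptors.

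Among TRAF and cIAP adaptors, 11 genes passed the filter (12 named, 17 listed), and 3 of them were higher by 1.5-fold or more and 0 lower. Their median was 0.14. TNIP1, which binds ubiquitin and the deubiquitinase TNFAIP3, read 6.51 on the stretched array and 4.91 on the static array (1.60). BIRC2 (cIAP1), a ubiquitin ligase of the receptor complex, read 5.54 and 4.70 (0.84). TRAF4 stood at 0.60 and TRAF5 at 0.46, both with static values within the background range.

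In the list of the TAK1 complex and its MAP kinase partners, 4 of 9 genes (11 listed) were higher by 1.5-fold or more and 1 lower. The median was 0.40. The kinases MAP2K4 and MAP2K3, which activate JNK and p38, stood at 1.93 and 1.82. MAP2K4 read 4.99 on the stretched array and 3.06, within the background range, on the static array. MAP2K6, another activator of p38, read 4.69 and 5.46 (-0.77). Chosen after their values were seen, MAP3K7 (TAK1 itself) read 7.17 and 7.37 (-0.20) and TAB3, the relative of TAB2, read 6.34 and 5.63 (0.71), with a second TAB3 probe set at -0.16.

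For the linear ubiquitin ligase and deubiquitinases, 4 of 12 genes (17 listed) were higher by 1.5-fold or more and 0 lower. The median was 0.355. Besides CYLD these were OTUD7B (1.53, static value within the background range), USP4 (0.66) and RBCK1 (0.64), the HOIL-1 subunit of the linear ubiquitin ligase. RIPK family genes past the filter numbered 5 (6 named, 7 listed), with a median of 0.38. LRRK1 was at least 1.5-fold higher (1.60, static value within the background range) and RIPK4 at least 1.5-fold lower (-0.70, stretched value within the background range), with DSTYK at 0.47 (static value in that range) and ANKK1 at -0.40 (both values). RIPK2, chosen after its values were seen, read 7.92 on the stretched array and 7.54 on the static array (0.38), both above the guide.

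Among genes with death domains or death effector domains and their partners, 6 of 13 (16 listed) were higher by 1.5-fold or more and 0 lower. The median was 0.58. DEDD2 read 4.77 on the stretched array and 2.77, within the background range, on the static array, so that the size of its difference is not firm. NFKB1, the p105 precursor of NF-κB, read 7.15 and 5.90 (2.38-fold), and MADD, a death domain protein that binds the TNF receptor, stood at a difference of 1.22 from a static value below the background guide. CFLAR came next in size. Of 6 genes of necroptosis and caspase execution past the filter (7 named, 15 listed), 3 were higher by 1.5-fold or more and 0 lower. The median was 0.50. They were PARP1 (1.17), a substrate of caspases, MLKL (0.99), the pore-forming effector of necroptosis, which read 6.80 on the stretched array and 5.81 on the static array, and ACIN1 (0.73). ZBP1 stood at -0.29, within the background range.

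The list of TNF shedding and synthesis had 5 of 7 genes (13 listed) higher by 1.5-fold or more and 1 lower. The median was 0.83. RHBDF2 (iRhom2), which carries the TNF-cleaving protease ADAM17 to the cell surface, read 5.99 on the stretched array and 4.79 on the static array (1.20). FRMD8, which stabilises the complex of iRhoms with ADAM17, stood at 1.11 from a static value below the background guide. TIA1, an RNA-binding protein that represses TNF translation in mice, stood at 1.01. Chosen after its values were seen, ADAM17 read 8.12 and 7.29 (0.83). TIMP3, an inhibitor of ADAM17, read 2.46 and 3.86 (-1.40), both below the background guide. Its second probe set stood at -0.14.

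**Figure D4:**
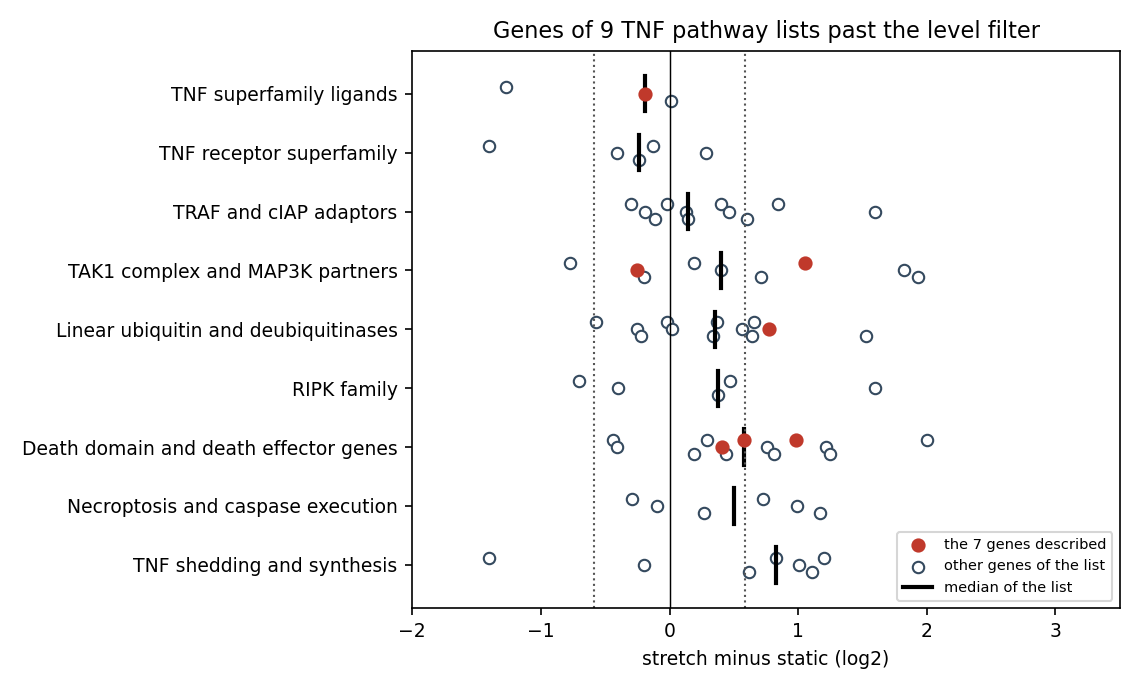
Difference (stretch minus static, log2, horizontal axis) of each gene past the level filter in 9 pathway lists, with the 7 genes described filled, other genes open and list medians as bars; dotted lines mark 1.5-fold. Ligands and receptors lie mostly below 0, with medians of -0.19 and -0.24, and the shedding list has the highest median, 0.83.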

How the data were processed

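Per the submitters' processing notes, the deposited values are RMA values (background correction, normalization and summary per probe set); the sources used here name no software, version or chip definition. That the deposited table is on a log2 scale was read from its values. Of 53617 probe sets, 16098 carried 1 gene symbol, 0 carried several and 37519 are unnamed here; symbols were checked by gene identifier against RefSeq (GRCh38.p14). Because the files name no genome build, coordinates are given only for RefSeq promoter windows.

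With 1 array per group nothing was tested. The genes were the listed symbols; of each fixed list up to 4 genes past the level filter with the largest differences are named. The members, lists and motifs were chosen with earlier results of these data known. Genes counted as higher or lower at 1.5-fold. Of 14 fixed housekeeping genes, 6 were named (2 at least 1.5-fold higher, 0 lower, median 0.34), fewer than the 10 planned. Centring on them used the mean of their differences, 0.51, which lies above their median. Their differences ran from -0.22 (B2M) to 1.72 (PPIA), so the results on housekeeping genes depend on PPIA and on the use of a mean. Alternatives covered scaling (median, quantile, loess with span 0.3, housekeeping), probe set choice, level filter and fold. Functions were tested on simulated data. Python 3.11.15, numpy 2.4.6, pandas 2.3.3 and statsmodels 0.14.6 were used.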

Additional observations from a re-analysis of the deposited data

How the results depend on the processing

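With 1 array per condition, an alternative was taken to move a value when it shifted it by more than 0.44, and a count when it changed it by over 1.5 times. The 0.44 is the robust SD of the differences of unrelated-tissue genes. The count of genes at least 1.5-fold higher was 3 of 7 as deposited (27.7% of all genes), 1 after quantile normalization (16.5%) and 0 on housekeeping genes (9.73%); it was 1 at 2-fold (12.3% of all genes) and 5 at the lowest fold tried (42.1%). The count lower was 0 as deposited (8.9% of all genes), 1 after quantile normalization (14.1%), 1 after loess (12.2%) and 2 on housekeeping genes (30.9%). On housekeeping genes the median difference was 0.067 and TNF stood at -0.70; that scaling lowers every difference by 0.51. With the dimmest probe set of each gene, an alternative chosen after seeing the data, the median was -0.03 and TAB1 stood at -0.54, a reversal. Of the 7 genes, 2 (CFLAR and CYLD) were then at least 1.5-fold higher, as were 27.5% of all genes. With all probe sets averaged TAB1 stood at 0.255. For the counts, the median and TNF, 32 alternative values stayed within 1.5 times the count or within that SD, and 10 moved. Some of the 32 could not move. Centring on medians raised every difference alike by less than that SD, so neither the median nor TNF could move under it. On housekeeping genes both had to move, because 0.51 exceeds 0.44. The 7 genes all passed the level filter, so dropping it changed nothing for them. A count of 0 lower at 1.5-fold stays 0 at 2-fold. No paired analysis was possible because each condition has 1 array, and leaving out a replicate was not possible for the same reason. Signals at or below the background guide of 4.395 limit what can be read from TNF, from the static values of TAB1 and CYLD, and from the dimmer probe sets of TAB1 and FADD.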

Other observations

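Of the genes next to TNF in the major histocompatibility complex, 5 were named and passed the filter (10 listed), with a median difference of 0.58. PRRC2A and MICB, 2 of the 5, were at least 1.5-fold higher under stretch, against 27.7% of all genes (32.9% of those with both signals above the background guide), and 0 were lower, against 8.9%. PRRC2A read 6.68 on the stretched array and 5.77 on the static array (0.91), with probe sets from 0.79 to 0.91. MICB, a stress ligand of natural killer cells, read 5.98 and 5.31 (0.67), and its 6 different probe sets lay between 0.66 and 0.78. Whether the probe sets of each of these genes share probes was not tested, so narrow ranges need not be separate measurements. NFKBIL1 stood at 0.58, NCR3 at -0.33 and LST1, whose 3 different probe sets lay between -0.28 and -0.15, at -0.15, all within the background range on both arrays.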
